A study of Mus musculus with 8 samples.

Results

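Naive and central memory T cells recirculate between blood and lymphoid organs, and a shared set of genes keeps them quiescent, alive and mobile. In these cells FOXO1 drives transcription of the interleukin-7 receptor and of KLF2, and KLF2 in turn drives S1PR1, the receptor that lets T cells leave tissue along a sphingosine-1-phosphate gradient. Strong receptor stimulation inactivates FOXO1 through the PI3K-AKT pathway, so that the set is typically low in effector and tissue-resident T cells. 9 genes of this set were followed in T cells recovered from xenografts, and they were taken by name: the transcription factors Foxo1, Tcf7, Lef1, Klf2 and Bach2, the chromatin organiser Satb1, and the receptors Il7r, S1pr1 and Cd27. 8 of the 9 had a probe set with exactly 1 gene symbol, each had 1 such probe set, and these 8 probe sets stood beside 21218 probe sets for 18820 genes in all. Tcf7, which encodes TCF-1, matched none and was not analysed here.

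The samples were CD3-positive cells taken at day 30 from grafts of tissue derived from human embryonic stem cells, in wild-type CD1 mice. In 4 samples the host was untreated and rejecting the graft. In the other 4 the host was tolerant after it had been given anti-CD4, anti CD8 and CD40L by injection. This wording is taken here to mean antibodies against each of these molecules. The labels number the samples 1 to 4 in each group without saying that each came from its own mouse, so the p-values cover no more than the scatter among the samples, and part of it may be technical. All values are log2 RMA values on 8 arrays, and differences are tolerant minus rejecting, also on the log2 scale.

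The arrays numbered 3 and 4 of both groups carried much more signal than those numbered 1 and 2, so results are given over all 8 arrays and within each of these sets. A background line was set on each array at the 99th percentile of 1182 probe sets of chemosensory receptor genes (olfactory and vomeronasal), which T cells are not known for. It lay between 0.99 and 1.35. The share of probe sets above it ran from 10.7% to 17.1% on the arrays numbered 3 and 4 and from 2.54% to 5.73% on the others. The actin gene Actb read 6.54 to 7.82 on the former and only 1.62 to 1.95 on the latter. Of 12 pan T cell markers, 4 exceeded the line on all 4 arrays numbered 3 and 4 (Cd3e, Cd5, Thy1 and Bcl11b), and Cd3d, Cd247 and Cd28 exceeded it on 0 of 8 arrays. Thy1 is also among the fibroblast markers read below.

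Of the 8 measured members, Klf2 was the one above the background line on more than 1 array. With the line at the 95th percentile instead, Klf2 exceeded it on 7 arrays, Lef1 and Foxo1 on 5 each, Cd27 on 4, and Il7r and Bach2 on 1 each. The 8 members gave 64 values, of which 8 exceeded the background line, or 12.5%, against 9.50% of all values in the table. Klf2 accounted for 6 of these 8 values, and Lef1 and Cd27 for 1 each. Il7r, S1pr1, Foxo1, Bach2 and Satb1 were under the line on every array. Among the members 3 of 8 exceeded the line on at least 1 array, against 26.4% of all probe sets, and 1 of 8 on at least 2 arrays, against 17.3%. Klf2 was also the 1 member above the line on at least 6 arrays, with 3.27% of probe sets, and on all 4 arrays numbered 3 and 4, with 7.7%. A value under the line is a bound on the signal and does not show that the transcript was absent. In these bulk samples, fewer cells of a type and less RNA per cell cannot be told apart.

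**Figure D1:**
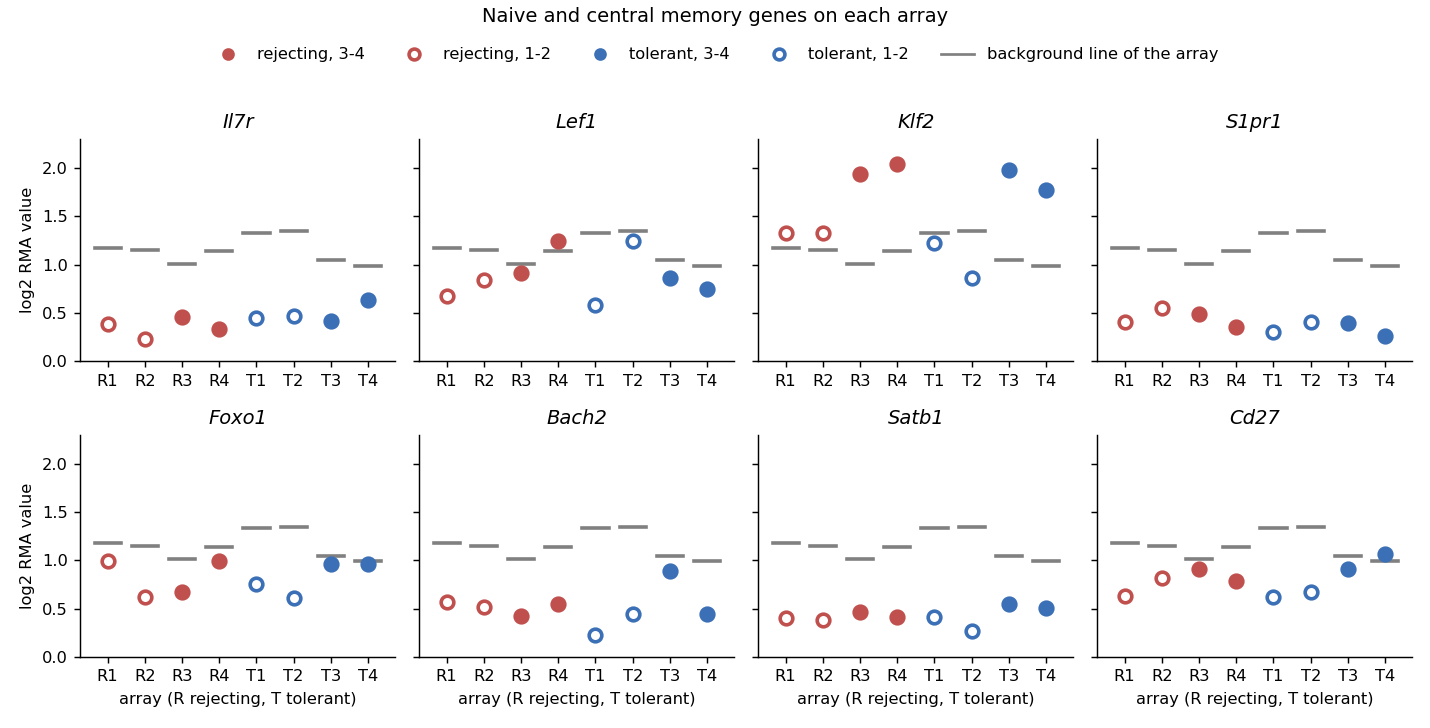
Log2 RMA value of each measured member (vertical axis) on each of the 8 arrays (horizontal axis), with red points for rejecting and blue for tolerant samples, filled for the arrays numbered 3 and 4 and open for those numbered 1 and 2. Grey bars are the background line of each array; Klf2 lies above it on 6 arrays, Lef1 and Cd27 on 1 each, and the other 5 genes on none.

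Klf2 (probe set 10572800) encodes a zinc finger factor of quiescent, recirculating T cells, and endothelial cells under flow express it too. In rejecting samples 1 to 4 it read 1.33, 1.33, 1.94 and 2.04. In tolerant samples 1 to 4 it read 1.23, 0.86, 1.98 and 1.77. The groups overlapped, and the high values were those of the arrays numbered 3 and 4 in both groups. On these 4 arrays it exceeded the background line by 0.78 to 0.94. It exceeded the line on the arrays numbered 1 and 2 by 0.16 and 0.18 in rejecting samples and lay 0.11 and 0.49 under it in tolerant ones. It was the 1 member whose arrays numbered 3 and 4 all lay above the arrays numbered 1 and 2, as did 10.1% of all probe sets. Its mean was 1.94 ± 0.12 (SD, n = 4) on the former and 1.19 ± 0.22 (SD, n = 4) on the latter.

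Klf2 did not differ past the threshold between the groups. Rejecting samples averaged 1.66 ± 0.38 (SD, n = 4) and tolerant samples 1.46 ± 0.51 (SD, n = 4). The difference was -0.20 with a 95% confidence interval from -0.80 to 0.40 (limma adjusted p = 1). Within the arrays numbered 3 and 4 it was -0.12 (interval from -0.42 to 0.19, limma adjusted p = 0.844), and on those numbered 1 and 2 it was -0.29 (interval from -0.69 to 0.11, limma adjusted p = 0.936). The interval on the arrays numbered 3 and 4, where Klf2 lay above the line, left room for a fall of up to 0.42 or a rise of up to 0.19. Single arrays moved the size: over 8 arrays it was -0.0023 without tolerant replicate 2 and -0.38 without tolerant replicate 3, and within the arrays numbered 3 and 4 it ran from -0.22 without tolerant replicate 3 to -0.011 without tolerant replicate 4. On the arrays numbered 1 and 2 it ran from -0.47 without tolerant replicate 1 to -0.11 without tolerant replicate 2.

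The probe sets most like Klf2 in pattern were sought among 692 others above the line on at least 6 arrays. Likeness was the mean absolute difference over the 8 arrays after each probe set was centred on its own mean. The nearest were Edf1 (0.102), Bri3 (0.113) and Olfr1347 (0.123). Edf1 encodes a transcriptional coactivator, and Olfr1347 is an olfactory receptor gene and one of the probe sets behind the background line. Olfr1347 read 1.18, 1.30, 1.66 and 1.50 in rejecting samples 1 to 4 and 1.09, 0.67, 1.86 and 1.82 in tolerant ones. Its likeness to Klf2 is what chose it and is no finding. Among the 1182 receptor probe sets, 0.508% lay higher on all arrays numbered 3 and 4 than on the others, against 10.1% of all probe sets.

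Endothelial markers were read beside Klf2, and none of the 12 passed the test. Their mean level was 0.671 in rejecting sample 3, 0.600 in rejecting sample 4, 0.944 in tolerant sample 3 and 0.811 in tolerant sample 4. Differences on these arrays were positive for 8 of the 12 and negative for 4, from -0.15 for Tie1 and Vwf to 1.25 for Emcn, a sialomucin of the endothelial surface (limma adjusted p = 0.111). Eng, a coreceptor for TGF-beta, differed by 0.71 (limma adjusted p = 0.224). Of the 12, 3 exceeded the background line on at least 2 arrays. Pecam1, Cdh5, Kdr, Tek, Esam, Cldn5, Tie1 and Sox17 exceeded it on none. The part of endothelial RNA in the level of Klf2 was not tested.

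Among the receptors, Il7r (10427628) encodes the alpha chain through which T cells receive the survival signal of interleukin-7. It read 0.38, 0.23, 0.46 and 0.34 in rejecting samples 1 to 4 and 0.45, 0.47, 0.42 and 0.64 in tolerant ones. The highest value was that of tolerant sample 4, and the groups overlapped between 0.42 and 0.46. The difference of 0.14 had an interval from -0.067 to 0.34 (limma adjusted p = 1). It was the only member with a positive difference in both sets, 0.13 on the arrays numbered 3 and 4 and 0.15 on those numbered 1 and 2, all from values 0.35 to 0.92 under the line. Within the arrays numbered 3 and 4 it was 0.016 without tolerant replicate 4 and 0.24 without tolerant replicate 3.

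S1pr1 (10501586), the exit receptor, read 0.41, 0.55, 0.49 and 0.36 in rejecting samples 1 to 4. In tolerant samples 1 to 4 it read 0.30, 0.40, 0.40 and 0.26. Tolerant samples held the lowest values and rejecting samples the highest, with overlap between 0.36 and 0.40. The difference was -0.11 with an interval from -0.30 to 0.082 (limma adjusted p = 1), and it was negative in both sets, as for Klf2. Every S1pr1 value lay at least 0.52 under the line.

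Cd27 (10547985), a costimulatory receptor of the TNF receptor family that is lost on terminally differentiated effector cells, came nearer to the line. It read 0.63, 0.81, 0.91 and 0.78 in rejecting samples 1 to 4 and 0.62, 0.67, 0.91 and 1.07 in tolerant ones. Tolerant sample 4 exceeded its line, by 0.076. Both tolerant values were above both rejecting values on the arrays numbered 3 and 4, a pattern that 19.3% of all probe sets shared. The lower tolerant value there, 0.9141, barely exceeded the higher rejecting one, 0.9115. The difference of 0.14 did not pass (interval from -0.15 to 0.44, limma adjusted p = 0.813). The arrays numbered 1 and 2 gave a difference of -0.078.

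Among the transcription factors, Foxo1 (10491962) sits upstream of Il7r and Klf2. It read 0.99, 0.62, 0.67 and 1.00 in rejecting samples 1 to 4 and 0.76, 0.61, 0.97 and 0.96 in tolerant ones. It came within 0.080 and 0.028 of the line in tolerant samples 3 and 4 without reaching it. Over 8 arrays the difference was 0.0036 (interval from -0.29 to 0.29, limma adjusted p = 1), with 0.13 on the arrays numbered 3 and 4 and -0.12 on the others.

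Lef1 (10496091) encodes an HMG box factor that partners beta-catenin and acts beside TCF-1 in naive T cells. It read 0.67, 0.84, 0.91 and 1.24 in rejecting samples 1 to 4 and 0.58, 1.24, 0.87 and 0.75 in tolerant ones. Rejecting sample 4 and tolerant sample 2 were the high arrays, and the former exceeded its line, by 0.10. Both tolerant values were under both rejecting ones on the arrays numbered 3 and 4, as for 20% of all probe sets. The difference there was -0.27 (interval from -0.64 to 0.098, limma adjusted p = 0.730), against 0.15 on the arrays numbered 1 and 2.

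Bach2 (10503695) encodes a repressor that holds back effector genes, and Satb1 (10451763) a chromatin organiser of thymocytes and naive T cells. Bach2 read 0.57, 0.51, 0.42 and 0.55 in rejecting samples 1 to 4 and 0.23, 0.44, 0.89 and 0.44 in tolerant ones. The tolerant samples held both its lowest value, in sample 1, and its highest, in sample 3. Satb1 read 0.40, 0.38, 0.46 and 0.41 in rejecting samples 1 to 4 and 0.42, 0.27, 0.55 and 0.50 in tolerant ones. Its 8 values spanned 0.28, the narrowest range of the members. The groups overlapped over 8 arrays. On those numbered 3 and 4 both tolerant values were above both rejecting ones, as for Cd27 and 19.3% of all probe sets. The differences over 8 arrays were -0.013 for Bach2 and 0.019 for Satb1 (limma adjusted p = 1 for each). B cells express Bach2 and Foxo1 as well, and of 7 measured B cell markers 0 exceeded the line on at least 2 arrays. Cd79a exceeded it in rejecting sample 2. NK cell markers gave 0 of 4. The T cell markers Cd3d, Cd247 and Cd28 were also under the line on every array. The part of B cells or NK cells in the values of the members was not tested.

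Across the members no group difference passed the test in any comparison. Over all 8 arrays limma called 0 of 8 members, and 0% of the 21218 probe sets, at an adjusted p under 0.05. Without adjustment it called 0 of 8 members and 2.89% of probe sets at a p under 0.05. The difference was positive for 4 of 8 members, against 50.1% of all probe sets, and negative for 4, with a median of -0.0045 against 0.00036 for all probe sets. The groups overlapped for each of the 8, whereas 1.09% of all probe sets were higher and 1.13% lower in tolerant samples without overlap.

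Within the sets the members likewise gave no call. On the arrays numbered 3 and 4 limma called 0 of 8 members and 0.0518% of probe sets, and at an unadjusted p under 0.05 it called 0 members and 7.21% of probe sets. Member differences ran from -0.27 to 0.18 with a median of 0.11, against -0.0067 for all probe sets, and 5 of 8 were positive against 48.2% of all. Satb1 and Cd27 were higher without overlap on these arrays, as were 19.3% of probe sets, and Lef1 was lower, as were 20%. For the arrays numbered 1 and 2 limma called 0 of 8 members and 0% of probe sets, and at an unadjusted p under 0.05 it called 0 members and 5.15% of probe sets. Differences there ran from -0.29 to 0.15 with a median of -0.10, against -0.0028, and 2 of 8 were positive against 49.4% of all. Il7r was higher without overlap there, as were 17.2% of probe sets, and Klf2, S1pr1 and Bach2 were lower without overlap, as were 17.1%.

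**Figure D2:**
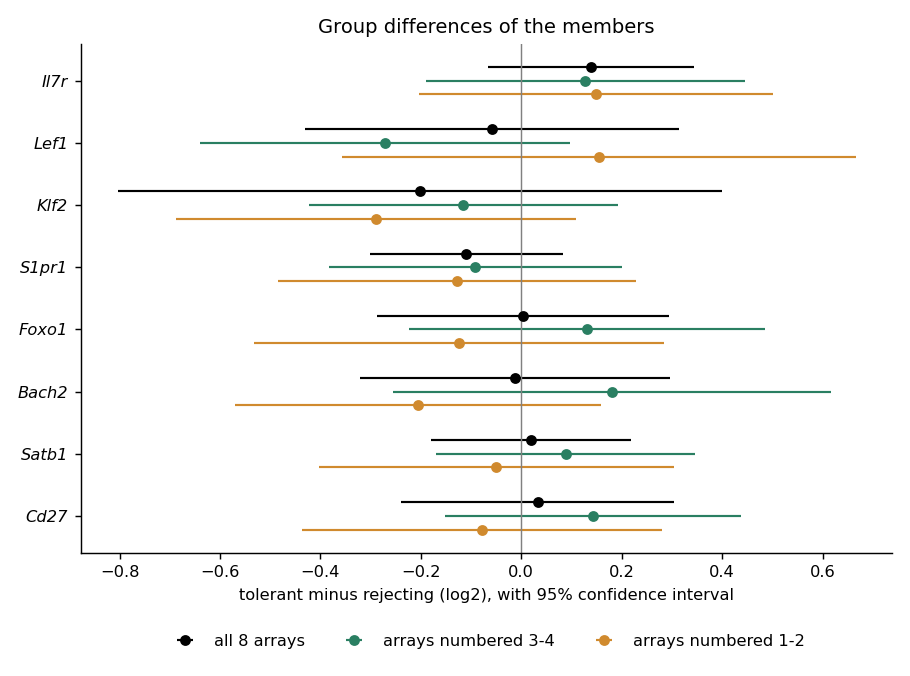
Tolerant minus rejecting difference on the log2 scale (horizontal axis) for each measured member (vertical axis), over all 8 arrays in black, the arrays numbered 3 and 4 in green and those numbered 1 and 2 in orange, with bars for the 95% confidence interval of limma. Every interval plotted includes 0.

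The differences of 5 members had opposite signs on the 2 sets of arrays. Foxo1, Bach2, Satb1 and Cd27 were positive on the arrays numbered 3 and 4 and negative on those numbered 1 and 2, and Lef1 ran the other way. An interaction term in limma, which tests the sets against each other, called 0 of 8 members and 0.0566% of probe sets. Unadjusted, a p under 0.05 was reached by 0 of 8 members and 7.13% of probe sets, and 6 of 8 members had a positive interaction against 50.2% of all. The lowest adjusted p among the members was 0.795, for Bach2, with an interaction of 0.39 (interval from -0.15 to 0.92). Since 7 of the 8 members were under the background line on both groups' arrays numbered 1 and 2, these data cannot tell an absent difference there from an absent signal.

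Genes around the members were read from 10 lists holding 109 genes, of which 101 were measured, and none passed the test. Limma's lowest adjusted p among the 101 on the arrays numbered 3 and 4 was 0.189. At an unadjusted p under 0.05 there were 15, of which 11 were positive and 4 negative, or 14.9% against 7.21% of all probe sets. 29 of the 101 were above the line on 2 or more arrays, against 17.3% of all probe sets. The difference was positive for 72 of the 101, against 48.2% of all, with a median of 0.11 against -0.0067. The median was above 0 in 9 of the 10 lists, some of which share genes, and below it for CD27 signalling (-0.038). Each listed gene stood by its probe set with the highest mean, so these shares and those of all probe sets come from unlike selections. Their contrast was not tested.

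Other naive and central memory genes had 0 of 14 measured members called in either direction, with a median of 0.052. Igfbp4, a binding protein of insulin-like growth factors that naive T cells express, read 1.71 and 1.21 in rejecting samples 3 and 4 and 2.16 and 2.09 in tolerant ones, a difference of 0.67 (limma adjusted p = 0.513). Klf3, a repressor of the same family as Klf2, differed by 0.29 and Id3, an inhibitor of E proteins, by -0.20. The KLF family had 0 of 6 called and a median of 0.20. Klf4, Klf7 and Klf10 differed by -0.40, 0.23 and 0.31. Klf7, Klf10 and Id3 were under the line on every array.

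The lists that stand for the opposite states gave no call either. Effector differentiation had 0 of 14 called and a median of 0.085. Id2, an inhibitor of E proteins that supports effector T cells, read 1.38 and 1.59 in rejecting samples 3 and 4 and 3.40 and 2.53 in tolerant ones. All 4 values exceeded the line. Both tolerant values were above both rejecting ones, as for 19.3% of all probe sets. The difference of 1.48 with a standard error of 0.29 did not pass over all genes (limma adjusted p = 0.290). On the arrays numbered 1 and 2 it was -0.030. Zeb2, a transcriptional repressor active in terminal effector cells, and the chemokine receptor Cx3cr1 differed by 0.39 and 0.40. Zeb2 and Cx3cr1 each exceeded the line on 1 array, and macrophages express them too. The 10 macrophage markers averaged 0.997 in rejecting sample 3, 0.549 in rejecting sample 4, 1.43 in tolerant sample 3 and 1.58 in tolerant sample 4, and 5 of them exceeded the line on at least 2 arrays. Their part in these differences was not tested. Tissue residency had 0 of 6 called and a median of 0.14, with 0.26 for Itga1, 0.16 for Cd69, which opposes S1PR1 at the cell surface, and 0.14 for Cxcr6. Of these 6 genes, 0 exceeded the line on at least 2 arrays.

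Signalling genes up- and downstream of the receptors gave no call on the arrays numbered 3 and 4. Interleukin-7 signalling had 0 of 10 called and a median of 0.13. Jak1, the kinase bound to the interleukin-7 receptor alpha chain, read 0.38 and 0.82 in rejecting samples 3 and 4 and 1.59 and 1.66 in tolerant ones, a difference of 1.02 (limma adjusted p = 0.224). The survival factor Mcl1 and the kinase Pim1 differed by 0.40 and 0.23. Jak1 was under the background line in every rejecting sample, and Mcl1 exceeded it on 1 array. The sphingosine-1-phosphate list had 0 of 12 called and a median of 0.12. Gnai2, a G protein alpha subunit that couples to S1PR1 and to chemokine receptors, read 1.77 and 1.69 in rejecting samples 3 and 4 and 2.57 and 3.08 in tolerant ones, a difference of 1.09 (limma adjusted p = 0.229). Apom, the plasma carrier of sphingosine-1-phosphate, and the receptor S1pr2 differed by -0.30 and -0.33. S1pr2 was under the line on every array, and Apom exceeded it on 1. CD27 signalling had 0 of 8 called, with -0.28 for Cd70, the ligand of CD27, 0.36 for Birc3 and -0.16 for Nfkb2. Cd70 was under the line on every array, and Birc3 exceeded it on 1.

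Partners of the transcription factors were likewise not called. The PI3K-AKT-FOXO list had 0 of 14 called and a median of 0.19, with 0.40 for Pik3r1, the regulatory subunit of PI3K, 0.38 for Pdpk1, which phosphorylates AKT, and 0.23 for Sgk1, another kinase that acts on FOXO factors. Pik3r1 and Sgk1 were under the background line on every array, and Pdpk1 exceeded it on 1. The TCF-LEF and beta-catenin list had 0 of 14 called and a median of 0.065. Ctnnb1, which encodes beta-catenin, read 0.56 and 0.83 in rejecting samples 3 and 4 and 1.59 and 1.58 in tolerant ones, a difference of 0.88 (limma adjusted p = 0.189). Gsk3b and Tcf7l2 differed by 0.51 and 0.29. Gsk3b was under the line on every array, and Ctnnb1 was under it in every rejecting sample. BACH and SATB partners had 0 of 7 called and a median of 0.018. Mafg, a small MAF protein that pairs with BACH factors, differed by -0.57 (limma adjusted p = 0.362). Chd4 differed by 0.38 and Hdac1, under the line on every array, by 0.12.

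**Figure D3:**
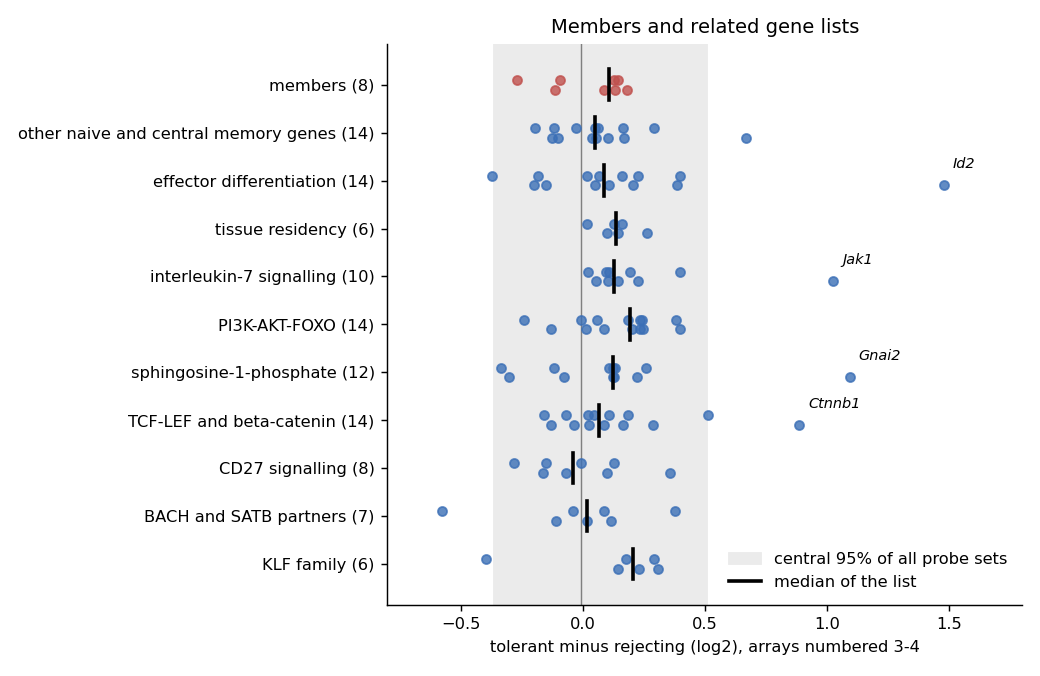
Tolerant minus rejecting difference on the log2 scale on the arrays numbered 3 and 4 (horizontal axis) for the members in red and the genes of the 10 related lists in blue, with the number measured in brackets, 1 point per gene and a black bar at each list's median. The grey band holds the central 95% of all probe sets, from -0.36 to 0.51, around their median as a thin line; all 8 members lie inside it, and Id2, Gnai2, Jak1 and Ctnnb1 lie farthest to its right.

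Kidney tubule and fibroblast markers were read on the same arrays. Ctnnb1, Jak1, Gnai2 and Id2 are expressed in many cell types, and the kidney tubule markers averaged 0.790 in rejecting sample 3, 0.831 in rejecting sample 4, 2.49 in tolerant sample 3 and 1.98 in tolerant sample 4. Of 9 such markers, 7 exceeded the background line on at least 2 arrays and 2 passed the test there, Slc12a3 (limma adjusted p = 0.0359) and Calb1 (limma adjusted p = 0.0440), both higher in tolerant samples, against 0.0518% of all probe sets called in either direction. Both calls were lost without tolerant replicate 3 (adjusted p = 0.342 and 0.326 in limma), without tolerant replicate 4 (0.247 for each) and with all probe sets of the table tested (0.158 and 0.168), and that of Calb1 also without rejecting replicate 3 (0.111) or 4 (0.0623). The 9 fibroblast markers, with Thy1 again among them, averaged 1.46 and 1.27 in these rejecting samples and 2.05 in both tolerant ones. Of these, 5 exceeded the line on at least 2 arrays. All 9 differences were positive, with a median of 0.49, and the largest was that of Dcn, 3.21 (limma adjusted p = 0.0581). The interaction term called 1 of the 9 (limma adjusted p = 0.0289). After quantile normalization it called 0 probe sets. Of the 12 pan T cell markers, 9 had a positive difference on these arrays, with a median of 0.10. The largest were those of Cd3e, 1.36 (limma adjusted p = 0.572), and Cd3g, 0.58 (limma adjusted p = 0.669). Lat, Bcl11b and Cd3d were negative, at -0.13, -0.035 and -0.025. The part of these cells in the differences of the listed genes was not tested.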

How the data were processed

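RNA from 8 samples, 4 rejecting and 4 tolerant, was measured on arrays. The deposited table holds log2 values of 35556 probe sets, which the authors made with RMA in Affymetrix Expression Console, per the submitters' processing notes. The sources used here give neither versions nor the base of the logarithm. Base 2 was taken because maxima lay between 12.6 and 12.7. Symbols came from the platform annotation, updated through Entrez identifiers to GRCm38.p6. limma 3.58.1 in R 4.3.3 (empirical Bayes, 2-sided, Benjamini-Hochberg over 21218 probe sets, threshold 0.05) was fitted on the whole table and tested on simulated data. Figures used matplotlib 3.10.9 under Python 3.11.15. The number of arrays limits the precision.

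All members were named, and from each related list the 3 genes with the smallest p on the arrays numbered 3 and 4 and any gene past the threshold; a gene with several probe sets was represented by that with the highest mean. Endothelial, fibroblast and T cell markers named besides were chosen after their values were seen. Members, lists, the background line and the split of the arrays were chosen with earlier results of these data known.

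Deviations of same-numbered arrays from the group means correlated by 0.499, 0.507, 0.410 and 0.599 for numbers 1 to 4, which treats the numbers as pairs. The source is the data, not the labels, and crossing the numbers between groups within a set gave like values (0.411 to 0.581). Alternatives were the replicate block, each array left out, renormalization, median centring, other sets of probe sets and other moderation.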

Additional observations from a re-analysis of the deposited data

Results flagged for a closer look

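Among 59 of the genes named in the text, 5 of 118 groups of 4 arrays held a value far from the other 3. They were 1.71 for Igfbp4 in rejecting sample 3 (others 1.17 to 1.24), 0.576 for Cd69 in rejecting sample 1 (0.265 to 0.291), 0.727 for Klf7 in rejecting sample 2 (0.353 to 0.377), 0.373 for Cd3d in rejecting sample 2 (0.529 to 0.535) and 0.547 for S1pr2 in tolerant sample 4 (0.837 to 0.879). No member of the set was among them. About 1 in 20 such groups would pass the bound used through scatter alone, so 5 of 118 was no excess. Cd69, Klf7, Cd3d and S1pr2 were under the background line on every array. The group difference of the kidney gene Slc12a3 was larger on the arrays numbered 3 and 4 than on those numbered 1 and 2, by 3.17 (limma interaction adjusted p = 0.00543). That call was lost after quantile normalization (adjusted p = 0.0829 in limma), and without tolerant replicate 1 (0.0703), tolerant replicate 3 (0.0585) or rejecting replicate 2 (0.0667).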

How the results depend on the processing

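In each alternative run that kept at least 2 arrays in each group compared, 0 members passed the test. Where dim probe sets were left out, Klf2 was the 1 member tested. With the replicate block the count of members was 0 over all 8 arrays and within each set, and the interaction was not fitted with it. Of 356 alternative values of a member's difference, 327 kept their sign and 29 did not, 28 of them with 1 array left out. The other was Foxo1 over 8 arrays, -0.033 after quantile normalization. With 1 array left out, the ranges that crossed 0 were, over 8 arrays, -0.19 to 0.050 for Lef1, -0.062 to 0.074 for Foxo1, -0.14 to 0.079 for Bach2, -0.018 to 0.074 for Satb1 and -0.051 to 0.099 for Cd27. On the arrays numbered 3 and 4 they were -0.033 to 0.30 for Foxo1 and -0.046 to 0.41 for Bach2. On those numbered 1 and 2 they were -0.18 to 0.49 for Lef1, -0.31 to 0.061 for Foxo1, -0.12 to 0.024 for Satb1 and -0.17 to 0.013 for Cd27. For the interaction they were -0.13 to 0.090 for Il7r, -0.0097 to 0.36 for Klf2 and -0.037 to 0.11 for S1pr1. Where a group was left with 1 array, it was assumed to vary like the other group. The count over all probe sets on the arrays numbered 3 and 4 was 11. It was 8 with the replicate block, 5 without dim probe sets, 26 with trend and robust moderation, 81 from the model over 8 arrays, 0 with all 35556 probe sets tested and 0 to 48 with 1 array left out (48 without rejecting replicate 4, 0 without tolerant replicate 3 or 4). On the arrays numbered 1 and 2 it was 0, and 2 without tolerant replicate 2. The interaction count was 12, 0 after quantile normalization and 0 to 76 with 1 array left out (76 without rejecting replicate 4, 0 without tolerant replicate 3). With the background line at the 95th percentile, Klf2 exceeded it on 7 arrays, Lef1 and Foxo1 on 5, Cd27 on 4, and Il7r and Bach2 on 1. Averaging probe sets per gene could not differ, since each member had 1.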
